A study of Mus musculus with 13 samples.

Results

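The genes of proteasome subunits, activators, assembly chaperones and inhibitors were followed in CD4+ T cells kept with or without islet macrophages. Members were all rows of the gene table whose symbol begins with Psma, Psmb, Psmc, Psmd, Psme, Psmf or Psmg and a digit, without pseudogenes marked as such, which gave 50 of 55774 rows. Of these, 49 passed the filter on low counts, together with 15781 genes in all. The exception was Psmb11, the catalytic subunit of the proteasome of thymic epithelium, with 8 counts over all 13 libraries. The rule on symbols also takes in Psmc3ip, a factor of meiotic recombination that is not part of the proteasome, and Psme2b, an intronless copy of Psme2.

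The proteasome is the protease complex that degrades ubiquitin-tagged proteins in the cytosol and nucleus. Its barrel-shaped core is built of rings of alpha subunits (Psma genes) and beta subunits (Psmb genes), 3 of which cut peptide bonds, and is capped by a regulatory particle of ATPases (Psmc genes) and non-ATPase subunits (Psmd genes). Under interferon, and constitutively in many immune cells, the catalytic subunits Psmb5, Psmb6 and Psmb7 are replaced by Psmb8, Psmb9 and Psmb10, which gives the immunoproteasome. The activator PA28, made of Psme1 and Psme2, is also induced by interferon. Activated lymphocytes enlarge their protein synthesis and degradation, and the immunoproteasome produces many of the peptides shown on MHC class I.

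RNA was sequenced from T cells of female BDC2.5 mice, a NOD (NOD/ShiLtJ) line that is transgenic for the alpha and beta chains of a T cell receptor against a beta-cell antigen. Primary naive splenic CD4+ T cells were taken in all groups. In 5 libraries (STZ 1 to 5) the cells had spent 96 hours with bead-enriched islet macrophages of NOD donors given 1 low dose of streptozotocin (STZ), a toxin that kills beta cells, and in 4 libraries (control 1 to 4) with islet macrophages of NOD donors given buffer. Donors were injected at 4 weeks of age and their islets taken 10 days later, at 5.5 weeks. The remaining 4 libraries (alone 1 to 4) held untreated T cells without macrophages. Whether these had been cultured is not stated, so time in culture and contact with macrophages cannot be told apart. After co-culture, viable cells positive for CD45, Thy1.2 and CD4 were sorted. The labels give 2 batches, day 1 with alone 1 to 4, control 1, 2 and 4 and STZ 1 and 5, and day 2 with control 3 and STZ 2, 3 and 4. Cells alone are therefore all of day 1.

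For 42 of the 50 members, RefSeq (GRCm38.p6) listed the 300 bases from 250 before to 50 after a transcript start. Those of 4 genes are shown because they stand for both forms of the catalytic core and for PA28, 2 of them interferon-regulated subunits encoded close to each other in the MHC class II region. Capitals mark matches to the motifs that were searched on both strands. They are a gamma-activated site, TTCNNNGAA, at position -97 of Psmb8, an interferon-stimulated response element (ISRE) core, which is GAAA, any 2 bases and GAAA, read on the minus strand at position 10 of Psme1, and an antioxidant response element core, TGACNNNGC, at position -47 of Psmb5. Positions are counted from the listed start, whose first transcribed base is 1.
Psmb8: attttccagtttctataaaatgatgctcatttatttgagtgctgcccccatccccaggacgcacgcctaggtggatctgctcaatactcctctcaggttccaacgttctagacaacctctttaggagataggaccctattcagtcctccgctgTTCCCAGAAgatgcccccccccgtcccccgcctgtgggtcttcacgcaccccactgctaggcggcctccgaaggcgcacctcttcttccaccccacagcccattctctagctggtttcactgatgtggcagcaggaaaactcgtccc
Psmb9: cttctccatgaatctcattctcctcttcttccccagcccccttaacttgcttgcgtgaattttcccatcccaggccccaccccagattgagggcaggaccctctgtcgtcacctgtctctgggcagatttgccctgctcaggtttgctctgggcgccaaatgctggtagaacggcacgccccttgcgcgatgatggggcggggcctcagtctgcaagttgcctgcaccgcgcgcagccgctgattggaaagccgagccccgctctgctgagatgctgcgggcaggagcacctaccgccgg
Psme1: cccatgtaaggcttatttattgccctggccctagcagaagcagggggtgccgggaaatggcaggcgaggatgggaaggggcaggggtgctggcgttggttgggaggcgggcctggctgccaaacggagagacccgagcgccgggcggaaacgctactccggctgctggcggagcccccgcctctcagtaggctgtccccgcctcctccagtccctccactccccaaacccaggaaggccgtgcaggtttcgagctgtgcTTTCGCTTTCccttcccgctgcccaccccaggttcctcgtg
Psmb5: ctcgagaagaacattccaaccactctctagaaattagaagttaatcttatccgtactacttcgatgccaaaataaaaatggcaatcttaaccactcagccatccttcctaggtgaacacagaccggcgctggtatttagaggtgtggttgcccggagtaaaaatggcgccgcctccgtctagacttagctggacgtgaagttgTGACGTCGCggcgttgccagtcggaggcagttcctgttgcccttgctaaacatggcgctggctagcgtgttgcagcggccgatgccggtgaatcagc
On this build the windows are chr17:34197945-34198244 (plus strand) for Psmb8, chr17:34187281-34187580 (minus strand) for Psmb9, chr14:55578244-55578543 (plus strand) for Psme1 and chr14:54617946-54618245 (minus strand) for Psmb5. The windows of Psmb8, Psmb9 and Psme1 lie inside the gene spans of GENCODE M21, which begin at a start farther upstream. Over the 42 member promoters, 5 held the ISRE core (Psmb3, Psmd4, Psmd9, Psme1 and Psmg4) and 3 the gamma-activated site (Psmb8, Psmd2 and Psmg1). The antioxidant element core was in 6 (Psmb5, Psmb6, Psmc6, Psmd12, Psmd9 and Psme4) and an NF-kB motif (GGGA, any base, TTTCC) in 0. Among all 27025 listed promoters, the shares were 3.489%, 8.466%, 12.466% and 0.385% for these motifs in the same order. The window of Psmb9 held none of these strings of letters, nor did those of Psmb10 and Psme2 (first listed start), which are not shown.

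Libraries held 17312119 to 61267763 counts, and single genes are given below as CPM, counts scaled to a common library total after TMM correction. All 8 T cell markers (Cd3e, Cd4, Lck and others) had counts in every group and summed to 5510 to 7200 CPM in STZ co-culture, 7210 to 11300 CPM in control co-culture and 4070 to 7530 CPM in cells alone. The 12 macrophage markers summed to 22 to 112 CPM in STZ co-culture, 7.03 to 58.3 CPM in control co-culture, where Mertk was at 0, and 2.95 to 13.1 CPM in cells alone, where Cd14 was at 0. The 6 B cell markers summed to 0.686 to 2.24 CPM, 0.758 to 1.91 CPM (Pax5 at 0) and 5.91 to 22.4 CPM in the same groups. The 8 islet endocrine markers summed to 0.686 to 154 CPM in STZ co-culture (Ppy at 0), 0.066 to 1.7 CPM in control co-culture (Sst, Ppy and Pyy at 0) and at most 0.583 CPM in cells alone, where only Ins2 had counts. The part of these sums in the differences below was not tested.

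Some libraries of a group stood apart from the rest in a subset of members, chosen here after their values were seen. Psmd3, a lid scaffold subunit, Psmd5, an assembly chaperone of the regulatory particle, and Psme3, the nuclear activator PA28 gamma, each had their 3 highest values in STZ 1, STZ 5 and alone 2. Psme3 was at 210, 19.3, 26.8, 23.4 and 100.1 CPM in STZ 1 to 5, at 18.0, 19.9, 22.3 and 14.6 CPM in control 1 to 4, and at 16.1, 135.8, 9.26 and 16.2 CPM in alone 1 to 4. This pattern was found in 562 of the 8335 genes with a mean of at least 10 CPM (6.74%), and in 3 of 48 members. Psmb4, Psmb5, Psmb8, Psmd6, Psmd7 and Psmg4 had their 3 lowest values in control 3, alone 3 and alone 4, a pattern of 673 genes (8.07%) and 6 of 48 members. Psmd6, a lid subunit, was at 194.5, 195.9, 94.3, 175.0 and 199.7 CPM in STZ 1 to 5, at 151.5, 212.6, 27.7 and 85.3 CPM in control 1 to 4, and at 74.4, 89.7, 32.3 and 15.6 CPM in alone 1 to 4. The libraries of the first pattern are all of day 1, and those of the second are of both days. Each pattern joins libraries of 2 groups.

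**Figure D1:**
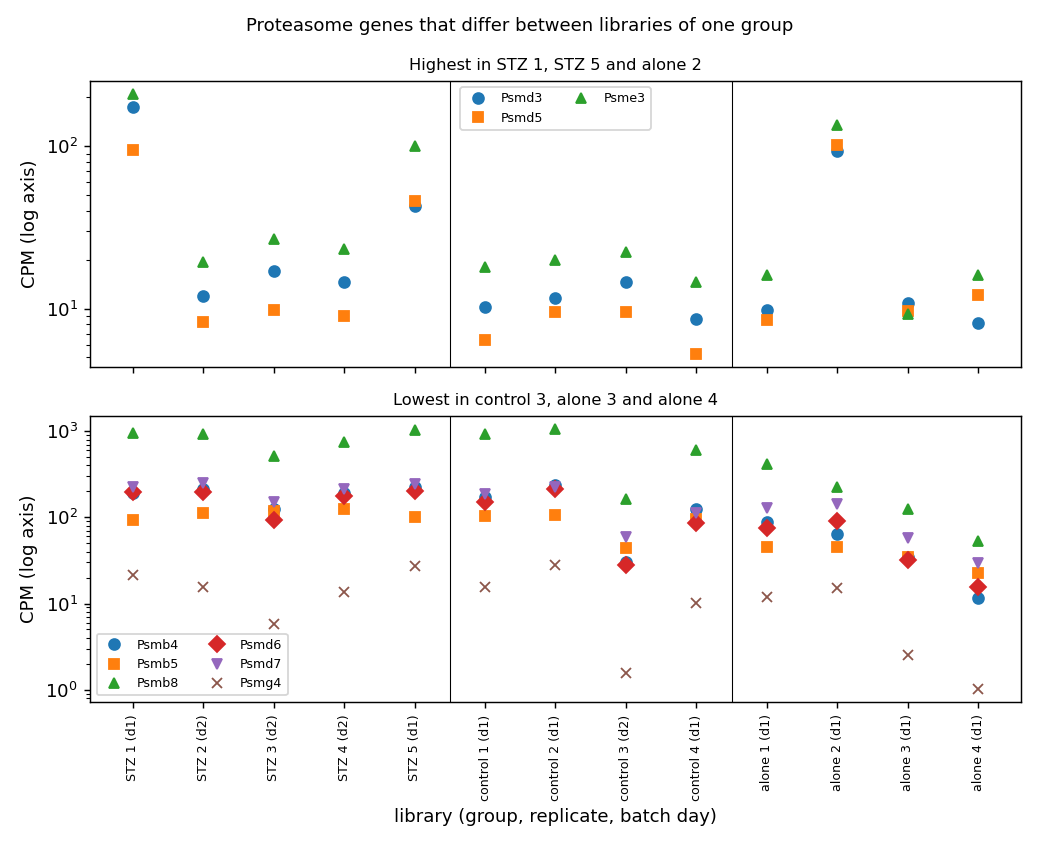
CPM (log axis) of 3 members that were highest in STZ 1, STZ 5 and alone 2 (upper panel) and of 6 members that were lowest in control 3, alone 3 and alone 4 (lower panel), with 1 point per gene and library and the batch day (d1, d2) beside each library's name. Psme3 reached 210 CPM in STZ 1 and 135.8 CPM in alone 2, while no control library was above 22.3 CPM.

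At least 4-fold between the highest and the lowest library of a group was seen in 5 of 48 members with a mean of 10 CPM or more in STZ co-culture (12.9% of all such genes), 5 of 47 in control co-culture (12.4%) and 8 of 47 in cells alone (20.5%). Across the 49 tested members, the rank correlation of a gene's deviation with its transcript GC content lay between -0.35 and 0.29 in STZ libraries, between -0.47 and 0.50 in control libraries and between -0.56 and 0.46 in cells alone. It was lowest in alone 4 (-0.56), control 3 (-0.47) and alone 3 (-0.41), and highest in control 1 (0.50) and alone 1 (0.46). These are descriptions across genes, which share their libraries, and the part of GC content in the patterns was not tested. For part of the genes that follow, values without some of these libraries are given as well.

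**Figure D2:**
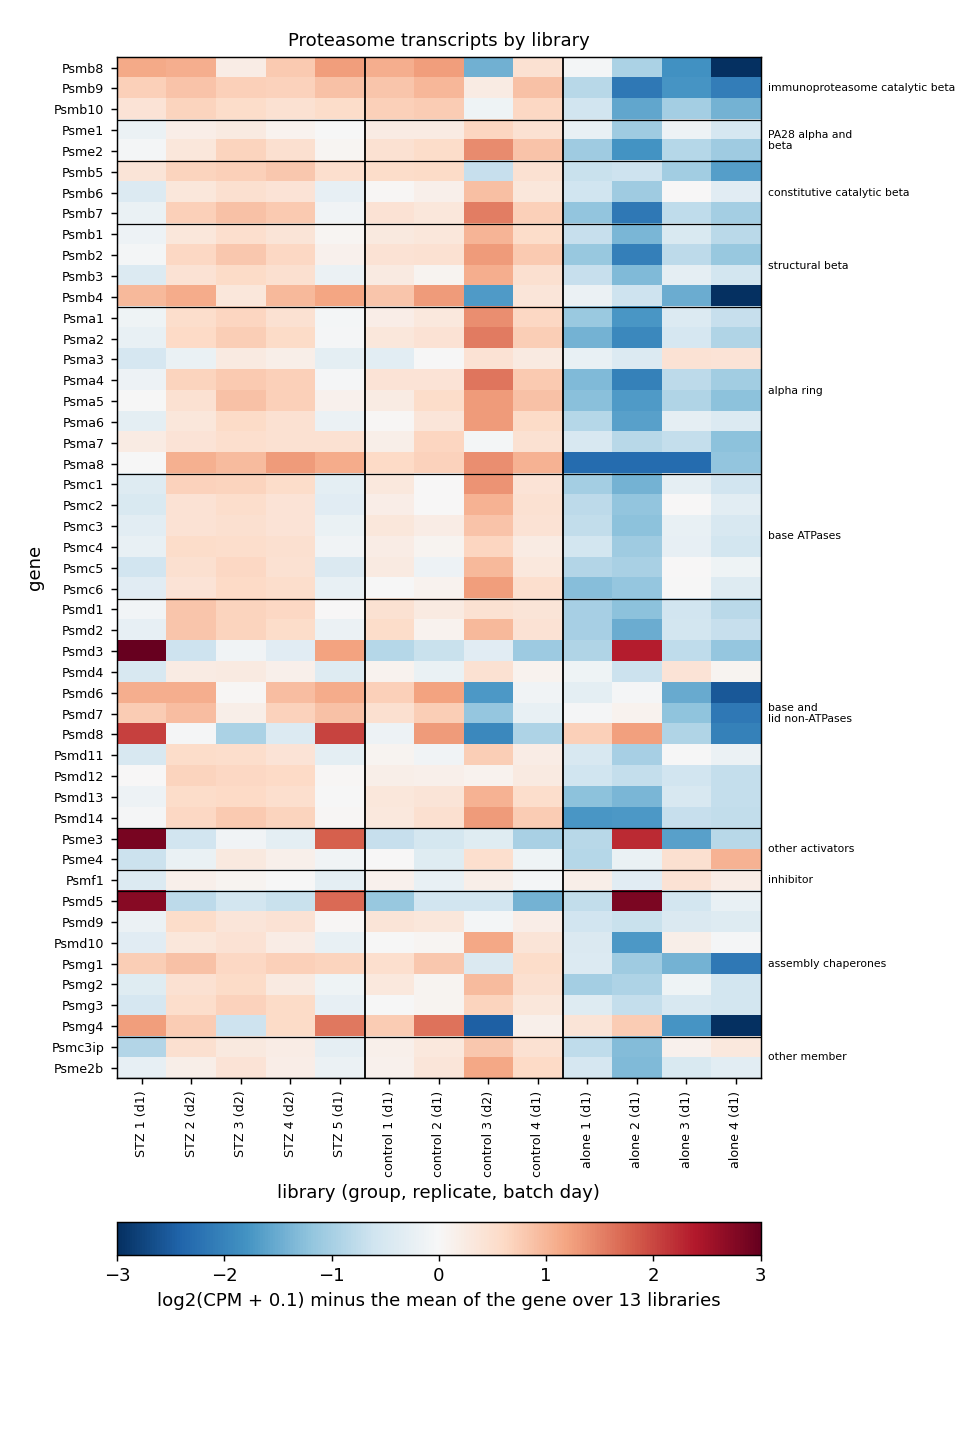
Colour gives log2(CPM + 0.1) of each tested member (rows, grouped by subcomplex) minus the gene's mean over 13 libraries (columns, with the batch day). Most core and regulatory subunits are blue in cells alone and red in control 3, and Psmd3, Psmd5 and Psme3 stand out in STZ 1, STZ 5 and alone 2.

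Many proteasome transcripts were higher in both co-cultures than in cells alone. Among those with the largest differences were the immunoproteasome subunits Psmb9 and Psmb8 and standard subunits, such as Psmb4 in STZ and Psma5 in control co-culture. In STZ co-culture against cells alone, 24 of 49 members were higher and 0 lower by edgeR's quasi-likelihood test, where 20.8% of all genes were higher and 22.3% lower. In control co-culture against cells alone, 34 of 49 were higher and 0 lower, where 23.1% of all genes were higher and 22.0% lower. The median log2 fold change of the members was 0.75 in STZ co-culture and 0.96 in control co-culture, while the medians of all genes were -0.05 and -0.13. At an unadjusted p under 0.05, 1 member (Psmf1) was lower in the STZ comparison (26.5% of all genes) and 0 in the control comparison (26.4%). DESeq2 called 0 lower in both, where 22.9% of all genes were lower in the STZ and 24.3% in the control comparison. Both comparisons share the libraries of cells alone. In bulk RNA, more cells of a type and more RNA per cell cannot be told apart.

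Every library of the co-culture was above every library of cells alone in 26 members for STZ co-culture (21.7% of all genes) and in 30 members for control co-culture (22.2%). Within day 1, 23 members were higher in STZ co-culture (17.3% of 17093 genes) and 32 in control co-culture (18.4%). Without the day term, 33 members were higher in STZ co-culture (23.7% of all genes) and 34 in control co-culture (23.6%). The count in STZ co-culture thus depends on this term, which cells alone, all of day 1, do not inform. Scaling by RLE moved the median of all genes in the STZ comparison by over 0.1, to 0.105, and the members' median to 0.89. With it 27 members were higher (23.5% of all genes). A correction for transcript GC content moved the medians of all genes to -0.36 in the STZ and -0.37 in the control comparison, with 17 members higher and 2 lower in the first (16.1% and 28.4% of 15337 genes) and 25 higher and 0 lower in the second (18.4% and 27.7%).

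The catalytic subunits of the immunoproteasome were higher in 3 of 3 cases in both co-cultures, where 20.8% (STZ) and 23.1% (control) of all genes were higher. Psmb9, which takes the place of Psmb6, was at 421, 459, 421, 412 and 471 CPM in STZ 1 to 5, at 451, 513, 301 and 471 CPM in control 1 to 4, and at 144, 57.7, 74.6 and 60.6 CPM in alone 1 to 4. All co-culture libraries exceeded all libraries of cells alone, and the lowest of them was control 3. Its log2 fold change over cells alone was 2.55 ± 0.31 (SE, adjusted p = 3.45e-05) in STZ co-culture and 2.42 ± 0.28 (adjusted p = 2.51e-05) in control co-culture. In the authors' adjusted log2 table, limma also called Psmb9, at 1.23 (adjusted p = 0.00123) in STZ and 0.94 (adjusted p = 0.00321) in control co-culture. STZ over control co-culture was 0.13 ± 0.28 (adjusted p = 0.78) for Psmb9.

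Psmb8, which replaces Psmb5, was at 962, 938, 508, 756 and 1039 CPM in STZ 1 to 5, at 935, 1053, 163 and 607 CPM in control 1 to 4, and at 421, 225, 125.0 and 53.2 CPM in alone 1 to 4. STZ co-culture did not overlap cells alone, whereas control 3 lay within their range. For Psmb8 the log2 fold change was 2.71 ± 0.64 (adjusted p = 0.00449) in STZ co-culture and 1.84 ± 0.55 (adjusted p = 0.016) in control co-culture over cells alone. Psmb8 is one of the genes that were lowest in control 3, alone 3 and alone 4. Without control 3 its log2 fold change over cells alone was 2.49 (adjusted p = 0.00541) in STZ and 2.14 (adjusted p = 0.00708) in control co-culture. STZ over control co-culture was 0.88 ± 0.61 (adjusted p = 0.378) for Psmb8, and 0.35 without control 3 (adjusted p = 0.838). Without the low-count filter, control co-culture over cells alone no longer passed (adjusted p = 0.0545).

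Psmb10, which replaces Psmb7, averaged 254.5 ± 18.3 CPM in STZ co-culture (SD, n = 5), 254.8 ± 63.4 CPM in control co-culture (n = 4) and 82.6 ± 26.5 CPM in cells alone (n = 4). The lowest co-culture library was control 3 at 161.6 CPM and the highest library of cells alone was alone 1 at 118.5 CPM, so the groups did not overlap. Over cells alone the log2 fold change was 1.78 ± 0.27 (adjusted p = 0.000202) in STZ co-culture and 1.67 ± 0.24 (adjusted p = 0.000131) in control co-culture. In the authors' adjusted log2 table, limma called neither Psmb8 (0.18, adjusted p = 0.81, in STZ and -1.11, adjusted p = 0.0807, in control co-culture) nor Psmb10 (0.64, adjusted p = 0.103, and 0.37, adjusted p = 0.279).

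PA28, which opens the core to peptides, was higher in control co-culture in both of its subunits, and in STZ co-culture in Psme2. Psme1 (PA28 alpha) was at 394, 509, 537, 480 and 443 CPM in STZ 1 to 5, at 524, 527, 698 and 609 CPM in control 1 to 4, and at 378, 212.5, 398 and 311.5 CPM in alone 1 to 4. The lowest STZ library thus fell within the range of cells alone, and control co-culture lay above it. Its log2 fold change over cells alone was 0.35 ± 0.20 (adjusted p = 0.184) in STZ co-culture and 0.78 ± 0.19 (adjusted p = 0.00521) in control co-culture. The STZ comparison passed without alone 2 (0.40, adjusted p = 0.024), without alone 3 (0.69, adjusted p = 0.0199) and without the day term (0.54, adjusted p = 0.0391). The control comparison did not pass with the GC correction (0.53, adjusted p = 0.114). STZ over control co-culture was -0.423 ± 0.185 (adjusted p = 0.205) for Psme1, so these calls are not shown to differ between the co-cultures.

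Psme2 (PA28 beta) was at 153, 201, 253, 220 and 167 CPM in STZ 1 to 5, at 218, 234, 426 and 288.5 CPM in control 1 to 4, and at 76.0, 45.5, 88.4 and 76.3 CPM in alone 1 to 4. Both co-cultures lay above cells alone, and STZ and control libraries overlapped. The log2 fold change was 1.09 ± 0.22 (adjusted p = 0.00163) in STZ co-culture and 1.83 ± 0.21 (adjusted p = 2.27e-05) in control co-culture over cells alone. With the GC correction the STZ value was 0.59 (adjusted p = 0.0869). STZ over control co-culture was -0.74 ± 0.20 (adjusted p = 0.131), and it passed without alone 2 (-0.55, adjusted p = 0.041).

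Counts of Psme2 are uncertain because its copy Psme2b, a single exon of 837 bases on chromosome 11, shares sequence with it, and it is not stated how shared reads were divided in the counting. Psme2b had 636 to 999 CPM in STZ co-culture, 834 to 1706 CPM in control co-culture and 300.2 to 606 CPM in cells alone. Psme2 made up 19.1 to 20.3% of the counts of both genes in STZ co-culture, 19.3 to 20.7% in control co-culture and 11.2 to 13.8% in cells alone. The sum of both was 787 to 1251 CPM in STZ co-culture, 1052 to 2131 CPM in control co-culture and 346 to 680 CPM in cells alone, with no overlap between either co-culture and cells alone. Psme2b itself was higher in control co-culture (log2 fold change 1.04 ± 0.22, adjusted p = 0.00185), while its value in STZ co-culture was 0.32 ± 0.23 (adjusted p = 0.278).

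**Figure D3:**
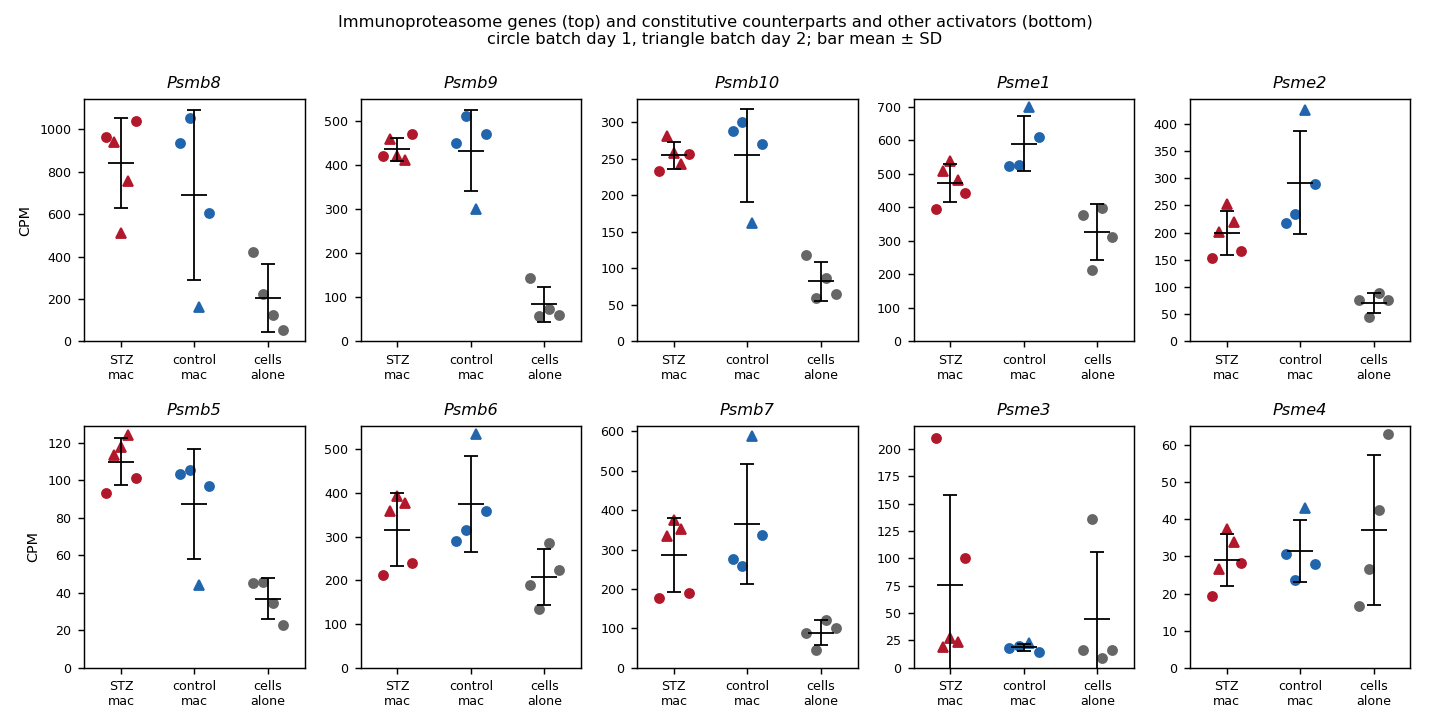
CPM per library (circles batch day 1, triangles batch day 2) with mean ± SD (n = 5 for STZ-macrophage co-culture, n = 4 for control-macrophage co-culture and for cells alone). The top row has the immunoproteasome genes and the bottom row Psmb5 to Psmb7, Psme3 and Psme4. Axes start at 0, which cuts off the SD of Psme3, and Psmb9 lies at 412 to 471 CPM in STZ co-culture, above the 57.7 to 144 CPM of cells alone.

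The constitutive catalytic subunits were higher in 3 of 3 cases in control co-culture (23.1% of all genes) and in 2 of 3 in STZ co-culture (20.8%). Psmb5, which has the chymotrypsin-like activity, was at 93.3, 113.5, 117, 124 and 101.3 CPM in STZ 1 to 5, at 103, 105.5, 43.9 and 96.7 CPM in control 1 to 4, and at 44.9, 45.7, 34.3 and 22.6 CPM in alone 1 to 4. Control 3 was again within the range of cells alone. The log2 fold change over cells alone was 1.74 ± 0.34 (adjusted p = 0.0012) in STZ and 1.28 ± 0.29 (adjusted p = 0.00329) in control co-culture. In the authors' adjusted table neither passed by limma (0.69, adjusted p = 0.159, and -0.05, adjusted p = 0.915). Without control 3 the edgeR values were 1.61 (adjusted p = 0.00046) in STZ and 1.53 (adjusted p = 0.000294) in control co-culture.

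Psmb7, with the trypsin-like activity, was at 178, 335.5, 375, 352 and 191 CPM in STZ 1 to 5, at 276, 258, 588 and 337 CPM in control 1 to 4, and at 89.3, 46.1, 121 and 100.6 CPM in alone 1 to 4. All co-cultures were above cells alone, and the day 2 libraries were at the upper end in both co-cultures. The log2 fold change over cells alone was 1.03 ± 0.26 (adjusted p = 0.00691) in STZ co-culture and 1.71 ± 0.25 (adjusted p = 0.000134) in control co-culture.

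Psmb6, with the caspase-like activity, averaged 316 ± 83.9 CPM in STZ co-culture (SD, n = 5), 375 ± 110.1 CPM in control co-culture (n = 4) and 208.0 ± 63.4 CPM in cells alone (n = 4). For Psmb6 the log2 fold change was 0.12 ± 0.22 (adjusted p = 0.697) in STZ co-culture and 0.63 ± 0.21 (adjusted p = 0.0249) in control co-culture over cells alone. The control comparison was close to the threshold. It did not pass without alone 1 (adjusted p = 0.0505), without control 4 (0.0707), within day 1 (0.0679) or in the fit of the 2 groups only (0.105). Nor did it pass without alone 1 and 2 (0.0659), without STZ 2 and 4 (0.0518) or with the GC correction (log2 fold change 0.39, adjusted p = 0.308). In the authors' adjusted table Psmb6 passed in both co-cultures (0.93, adjusted p = 0.0101, in STZ and 1.31, adjusted p = 0.000364, in control co-culture). Without alone 3, alone 4 and control 3 the STZ value also passed (0.70, adjusted p = 0.0167).

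Within a library, the ratio of an immunoproteasome subunit to the constitutive subunit it replaces does not depend on library scaling. The log2 ratio of Psmb9 to Psmb6 counts was 0.99, 0.35, 0.10, 0.13 and 0.98 in STZ 1 to 5, 0.64, 0.70, -0.83 and 0.39 in control 1 to 4, and -0.39, -1.22, -1.94 and -1.88 in alone 1 to 4. STZ co-culture lay above all libraries of cells alone, and control 3 lay among them. The mean was 0.51 ± 0.44 in STZ co-culture, 0.23 ± 0.72 in control co-culture and -1.36 ± 0.72 in cells alone (SD, n = 5, 4 and 4). The difference from cells alone was 1.87 in STZ co-culture (exact two-sided permutation p = 0.00794, the smallest that 5 against 4 libraries allow, adjusted p = 0.0952 over 12 ratio tests) and 1.58 in control co-culture (exact p = 0.0571, adjusted p = 0.317). Control co-culture was higher in 4 of 4 same-numbered pairs, by 1.03 to 2.27 (exact paired p = 0.125, the smallest that 4 pairs allow, adjusted p = 0.375). The labels do not state this pairing. Per transcript length, Psmb9 made up 38.8 to 54.0% of the pair in STZ co-culture, 24.9 to 48.9% in control co-culture and 13.3 to 31.1% in cells alone.

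The other ratios overlapped between co-cultures and cells alone, and 0 of the 12 ratio tests passed the adjusted threshold. The log2 ratio of Psmb8 to Psmb5 averaged 2.90 ± 0.54 in STZ co-culture, 2.76 ± 0.65 in control co-culture and 2.16 ± 0.84 in cells alone, where the ratio was 9.37 in alone 1 and 2.36 in alone 4. Per length, Psmb8 was 70.5 to 85.1% of its pair in STZ co-culture, 67.2 to 84.6% in control co-culture and 56.6 to 83.8% in cells alone. The log2 ratio of Psmb10 to Psmb7 was -0.10 ± 0.48 in STZ co-culture, -0.48 ± 0.95 in control co-culture and -0.08 ± 0.55 in cells alone, so it differed by less than the spread between libraries. Psme1 and Psme3 belong to different activators and are not a pair in which 1 subunit replaces the other. The log2 ratio of Psme1 to Psme3 was 3.29 ± 1.68 in STZ co-culture, 4.98 ± 0.28 in control co-culture and 3.72 ± 2.11 in cells alone, with the lowest values in STZ 1 (0.91), STZ 5 (2.15) and alone 2 (0.65). STZ minus control co-culture was -1.69 for this ratio (exact permutation p = 0.0794, adjusted p = 0.317). The groups did not overlap, but the highest STZ value (4.719, STZ 2) almost reached the lowest control value (4.726, control 2). STZ 3 and 4 were at 4.325 and 4.356, so the difference rests mainly on STZ 1 and STZ 5. Control co-culture exceeded cells alone in 3 of 4 same-numbered pairs for Psmb8 over Psmb5 and for Psme1 over Psme3. For Psmb10 over Psmb7 it did so in 1 of 4 (exact paired adjusted p = 0.643 for each of these ratios).

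**Figure D4:**
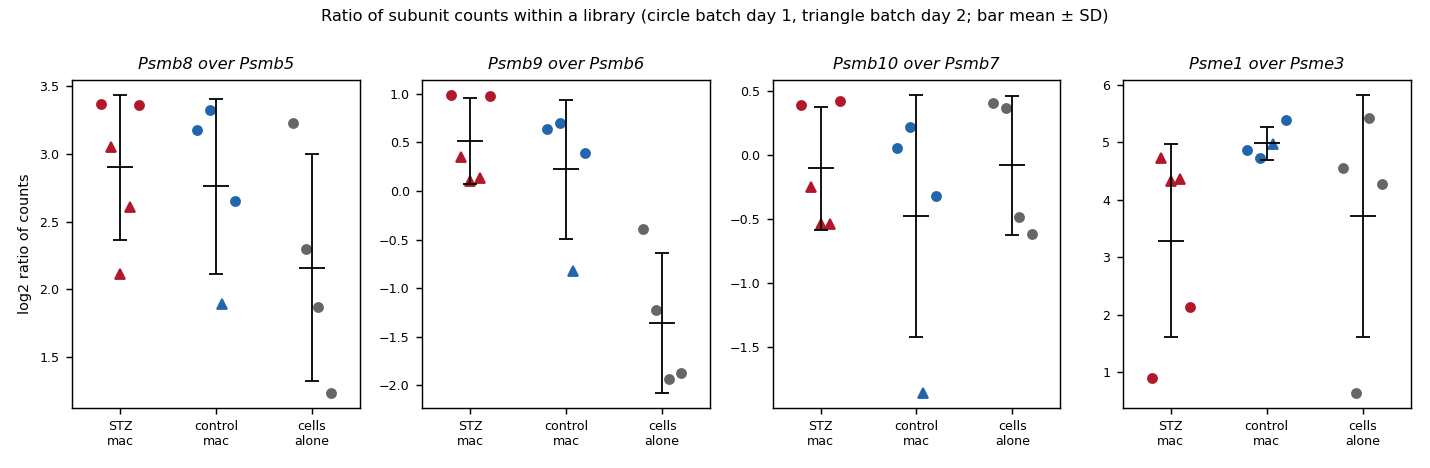
Log2 ratio of counts of 2 subunits within each library (circles batch day 1, triangles batch day 2) with mean ± SD (n = 5, 4 and 4). Psmb9 over Psmb6 is 0.10 or more in all STZ libraries and -0.39 or less in all cells alone, and the other ratios overlap between co-cultures and cells alone.

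The alpha ring, which forms the gate of the core, was higher in 6 of 8 members in STZ co-culture (median log2 fold change 0.98) and in 7 of 8 in control co-culture (1.51). Of all genes, 20.8% and 23.1% were higher in the same order. Psma5 was at 65.3, 91.2, 121, 108 and 72.2 CPM in STZ 1 to 5, at 79.0, 96.5, 160.5 and 121 CPM in control 1 to 4, and at 27.7, 20.5, 35.6 and 28.4 CPM in alone 1 to 4. The co-cultures lay above cells alone throughout. Its log2 fold change over cells alone was 1.28 ± 0.22 (adjusted p = 0.000579) in STZ co-culture and 1.83 ± 0.21 (adjusted p = 2.31e-05) in control co-culture. Psma7 had the smallest p of the ring in STZ co-culture, with 1.27 ± 0.22 (adjusted p = 0.00048), against 1.14 ± 0.20 (adjusted p = 0.000476) in control co-culture. Psma3 was not called in either comparison (-0.48 and -0.10), nor was Psma6 in STZ co-culture (0.41).

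Psma8, a relative of Psma7 known from germ cells, was near the detection limit. It had 165 counts in the 5 STZ libraries, 129 in the 4 control libraries and 4 in the 4 libraries of cells alone, all from alone 4. The ratio of pooled, depth-scaled counts over cells alone was 28.2 in STZ co-culture (95% interval 10.8 to 105) and 28.3 in control co-culture (10.8 to 105), where the intervals cover counting error only. It did not exceed 1.2 CPM in any library, while its relative Psma7 had 133 CPM or more, and reads shared with Psma7 cannot be told from its own.

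The structural beta subunits Psmb1 to Psmb4 were higher in 3 of 4 cases in STZ co-culture (20.8% of all genes) and in 4 of 4 in control co-culture (23.1%). Psmb2 was at 351, 560, 637.5, 556 and 398 CPM in STZ 1 to 5, at 493, 500, 885 and 628 CPM in control 1 to 4, and at 164, 87.7, 212 and 167 CPM in alone 1 to 4. Its log2 fold change, with the co-cultures above all cells alone, was 1.23 ± 0.25 (adjusted p = 0.00156) in STZ and 1.79 ± 0.23 (adjusted p = 6.22e-05) in control co-culture. Psmb3 was not called in STZ co-culture (0.37 ± 0.22, adjusted p = 0.196).

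Psmb4 had the second-largest difference of any member over 3 log2 CPM in STZ co-culture, 2.58 ± 0.67 (adjusted p = 0.00741), against 1.60 ± 0.56 (adjusted p = 0.0331) in control co-culture. It was at 194, 212, 124, 194 and 222 CPM in STZ 1 to 5, at 174, 238, 30.3 and 125.5 CPM in control 1 to 4, and at 87.3, 63.9, 35.0 and 11.6 CPM in alone 1 to 4. Control 3 was below 3 of the 4 libraries of cells alone. With the replicate number as a block the STZ value was 2.51 (adjusted p = 0.0625), and in the authors' adjusted table it was 0.25 (adjusted p = 0.759). Without control 3 the STZ value of Psmb4 was 2.29 (adjusted p = 0.00747).

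Of the 6 ATPases of the regulatory particle, which unfold substrates, 0 were called in STZ co-culture and 5, all higher, in control co-culture. Of all genes, 20.8% and 23.1% were higher. The median log2 fold changes of the ATPases were 0.34 and 0.80. In STZ co-culture 1 of them, Psmc4, had an unadjusted p under 0.05. It was at 271, 466, 461, 441 and 297 CPM in STZ 1 to 5, at 373, 338, 499 and 376 CPM in control 1 to 4, and at 217, 152, 267 and 217 CPM in alone 1 to 4. The STZ libraries lay above cells alone with STZ 1 close to alone 3, at a log2 fold change of 0.46 ± 0.19 (adjusted p = 0.064). The day term of this fit was 0.60 ± 0.17 for Psmc4 (day 2 over day 1, adjusted p = 0.0598). Psmc3 had the smallest p in control co-culture, with 0.93 ± 0.20 (adjusted p = 0.00201), and 0.41 ± 0.21 (adjusted p = 0.142) in STZ co-culture. Psmc5 was not called in control co-culture (0.56, adjusted p = 0.0642). The difference between the co-cultures was not called for any ATPase (log2 fold change of STZ over control co-culture -0.64 to -0.27, adjusted p 0.16 to 0.34).

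Of the 11 non-ATPase subunits, 7 were higher in STZ co-culture (20.8% of all genes) and 5 in control co-culture (23.1%). Psmd1, a scaffold of the base, was at 323, 605, 547, 524 and 343 CPM in STZ 1 to 5, at 466, 412, 469 and 446 CPM in control 1 to 4, and at 171, 146, 231 and 194 CPM in alone 1 to 4. The log2 fold change was 1.00 ± 0.20 (adjusted p = 0.00176) in STZ and 1.16 ± 0.18 (adjusted p = 0.000262) in control co-culture, without overlap with cells alone. Psmd13, a lid subunit, was at 0.82 ± 0.21 (adjusted p = 0.00731) and 1.31 ± 0.20 (adjusted p = 0.000172). Psmd14, the deubiquitinase of the lid, was higher by 1.12 ± 0.27 (adjusted p = 0.00461) and 1.68 ± 0.25 (adjusted p = 0.000181) in the same order.

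Psmd6 and Psmd7 were called in STZ co-culture and not in control co-culture. For Psmd6 the log2 fold change over cells alone was 2.36 ± 0.65 (adjusted p = 0.0108) in STZ and 1.26 ± 0.54 (adjusted p = 0.0766) in control co-culture. The STZ value of Psmd6 in the authors' adjusted table was 0.60 (adjusted p = 0.45), and without control 3 it was 2.12 (adjusted p = 0.0123). STZ over control co-culture was 1.10 ± 0.62 (adjusted p = 0.291) for Psmd6 and 0.92 ± 0.49 (adjusted p = 0.268) for Psmd7, so these calls are not shown to differ between the co-cultures. Psmd3, Psmd4, Psmd8 and Psmd11 were called in neither. Psmd4, a ubiquitin receptor, had log2 fold changes of -0.37 and 0.00, with 230 to 385 CPM in STZ co-culture, 278 to 440 CPM in control co-culture and 204 to 423 CPM in cells alone.

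The activators outside PA28 alpha and beta and the inhibitor were not called. For Psme3 the log2 fold change over cells alone was 1.17 ± 0.83 (adjusted p = 0.277) in STZ and -0.66 ± 0.92 (adjusted p = 0.58) in control co-culture, values that rest on a few libraries. Without alone 2 they were 3.06 (adjusted p = 0.00254) and 1.03 (adjusted p = 0.208). Without STZ 1 the STZ value of Psme3 was 0.36 (adjusted p = 0.774). Without alone 2, STZ 1 and STZ 5 they were 0.745 (adjusted p = 0.275) and 0.40 (adjusted p = 0.255), and without alone 3, alone 4 and control 3 they were 1.28 (adjusted p = 0.2) and -2.02 (adjusted p = 0.0302). Without alone 1 and 2 they were 3.17 (adjusted p = 0.00642) and 1.14 (adjusted p = 0.221). Psme4, the activator PA200, was at 19.4, 26.6, 37.3, 33.9 and 28.3 CPM in STZ 1 to 5, at 30.8, 23.7, 43.1 and 27.9 CPM in control 1 to 4, and at 16.7, 26.7, 42.4 and 62.9 CPM in alone 1 to 4. Its groups overlapped, with log2 fold changes of -0.69 ± 0.39 (adjusted p = 0.168) and -0.41 ± 0.36 (adjusted p = 0.371), and without alone 1 the STZ value passed (-0.92, adjusted p = 0.0317). Without alone 1 and 2 both passed, at -1.001 (adjusted p = 0.00559) in STZ and -0.90 (adjusted p = 0.00782) in control co-culture. In the authors' adjusted table Psme4 was higher in both (0.93, adjusted p = 0.0388, and 1.13, adjusted p = 0.00711). Psmf1, an inhibitor of the core in vitro, had -0.46 ± 0.21 (adjusted p = 0.093) in STZ and -0.23 ± 0.19 (adjusted p = 0.338) in control co-culture.

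Of the 7 assembly chaperones, 2 were higher in STZ co-culture (28.6%, beside 20.8% of all genes) and 4 in control co-culture (57.1%, beside 23.1%). Psmg1, which helps to build the alpha ring, was at 82.0, 89.7, 74.6, 80.0 and 77.6 CPM in STZ 1 to 5, at 69.7, 85.1, 36.0 and 71.2 CPM in control 1 to 4, and at 36.8, 23.4, 18.2 and 11 CPM in alone 1 to 4. Control 3 lay just under alone 1, and STZ libraries did not overlap cells alone. The log2 fold change was 2.09 ± 0.38 (adjusted p = 0.000755) in STZ and 1.61 ± 0.33 (adjusted p = 0.00188) in control co-culture. Psmd9, a chaperone of the base, was the other one called in both (0.66 and 0.70), though 25.5% of its exonic bases overlap an antisense gene and the library kit does not keep the strand. Psmg2 and Psmg3 were called in control co-culture (0.91 and 0.60), and Psmd5, Psmd10 and Psmg4 in neither. Psmc3ip, the meiotic factor, had -0.19 ± 0.38 (adjusted p = 0.709) and 0.52 ± 0.34 (adjusted p = 0.224).

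**Figure D5:**
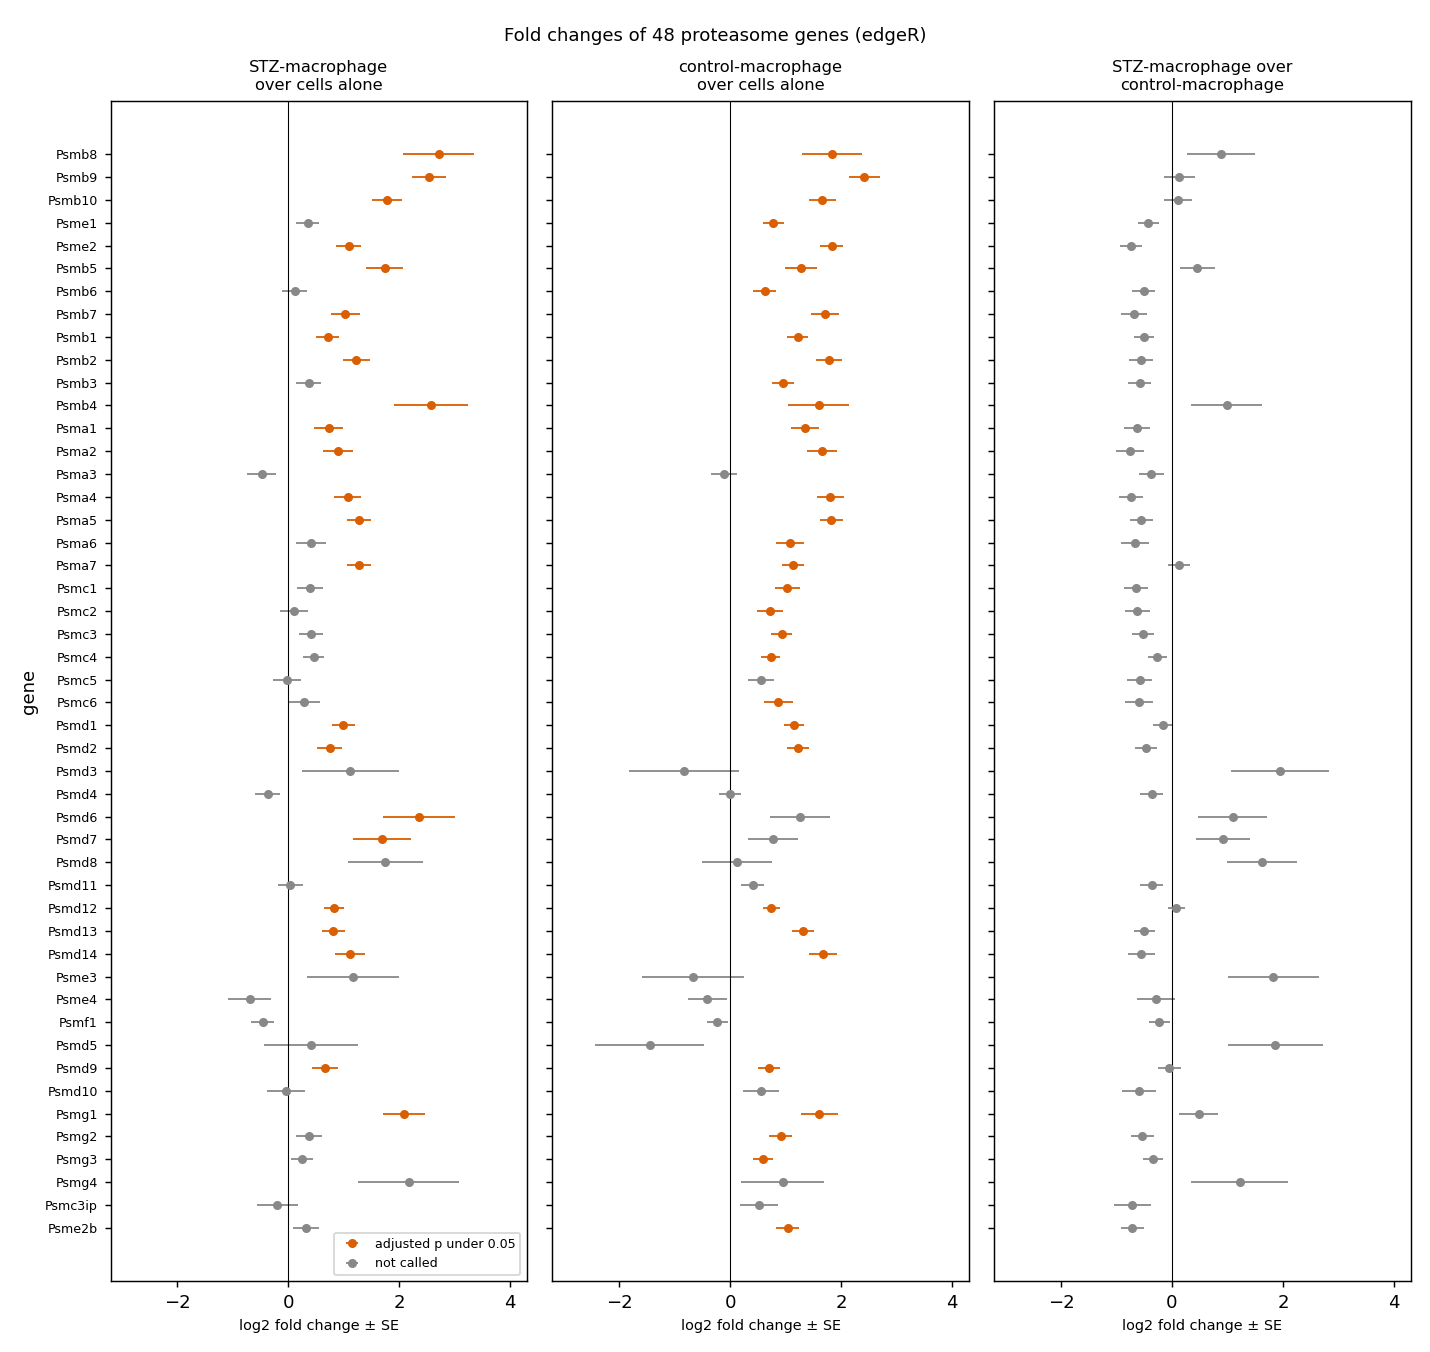
Log2 fold change ± SE of 48 members (edgeR, without the scarce Psma8) for STZ-macrophage co-culture over cells alone, control-macrophage co-culture over cells alone, and STZ-macrophage over control-macrophage co-culture. Orange marks an adjusted p under 0.05, which 23 and 33 of the 48 genes reach in the first and the second panel and 0 in the third.

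Between STZ and control co-culture, 0 of 49 members were called by edgeR in the fit of all libraries, where 0.323% of all genes were called, and DESeq2 also called 0, while it called 2.8% of all genes higher and 1.47% lower. At an unadjusted p under 0.05, 4 members were higher (7.99% of all genes) and 22 were lower (14.8% of all genes) in STZ co-culture. Of the members, 34 had a negative log2 fold change (55.4% of all genes), with a median of -0.37 beside -0.13 for all genes. The groups overlapped in every member, where 2.46% of all genes were higher and 5.08% lower without overlap. The 4 higher ones were Psmd3, Psmd5, Psmd8 and Psme3, 3 of which were highest in STZ 1, STZ 5 and alone 2. Psmd8, a lid subunit, was at 178, 42.4, 22.3, 32.7 and 177 CPM in STZ 1 to 5, at 39.0, 104, 11.2 and 22.8 CPM in control 1 to 4, and at 71.0, 101.7, 23.0 and 10.5 CPM in alone 1 to 4, so STZ 1 and 5 were the highest libraries and the other STZ libraries lay within the range of the controls. All 8 T cell markers also had a log2 fold change below 0 in this comparison (median -0.51), with 6 lower at an unadjusted p under 0.05 and 0 called, and their part in the members' differences was not tested.

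The median difference between the co-cultures was below 0 in most subcomplexes, with no member called in any of them. Median log2 fold changes of STZ over control co-culture were -0.59 for the alpha ring, -0.53 for the structural beta subunits, -0.51 for the constitutive catalytic subunits, -0.58 for the ATPases and for PA28, -0.16 for the non-ATPase subunits, -0.045 for the assembly chaperones, -0.23 for the inhibitor, 0.13 for the immunoproteasome catalytic subunits and 0.77 for Psme3 and Psme4. Members with the smallest p of their own subcomplex included Psma4 (-0.74 ± 0.22, adjusted p = 0.148), Psmb3 (-0.58 ± 0.20, adjusted p = 0.161), Psmc1 (-0.64 ± 0.21, adjusted p = 0.16) and Psmg2 (-0.54 ± 0.20, adjusted p = 0.176). In a fit of these 2 groups only, 2 members were higher and 15 lower, while 1498 genes were higher and 1200 lower of 14881 tested. Psme2 (-0.55, adjusted p = 0.02), Psmb7 (-0.50, adjusted p = 0.0204) and Psme3 (2.04, adjusted p = 0.0413) were among those 17. Without control 3 the median of the members was -0.29 beside -0.03 for all genes, and 0 were called.

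In the fit of all libraries, day 2 was higher than day 1 in 6 members (2.10% of all genes) and lower in 0 (1.05%), with a median of 0.59 beside 0.13 for all genes. The 6 were Psma4, Psmb7, Psmc1, Psmc5, Psmd11 and Psmg3. Psmc1 had the smallest p, with 635, 631 and 579 CPM in STZ 2 to 4 and 1004 CPM in control 3 of day 2, against 301 and 322.5 CPM in STZ 1 and 5 and 397 to 530 CPM in the other control libraries of day 1. The 12 macrophage markers summed to 29.2 to 112 CPM in STZ and 58.3 CPM in control libraries of day 2, against 22 to 27.4 CPM in STZ and 7.03 to 11.3 CPM in control libraries of day 1, and their part was not tested. This term rests on the co-cultures and was examined after the data were seen. STZ minus control co-culture was called in 0 members within day 1 (median -0.44, 0.215% of all genes called) and 0 within day 2 (median -0.34, 0% called), where control 3 is the only control library. The difference between the days was called in 0 members (0.00634% of all genes). At an unadjusted p under 0.05, 3 members were higher and 5 lower within day 1 (9.75% and 6.55% of all genes), and 7 higher and 5 lower within day 2 (8.48% and 5.54%). For the difference between the days, 4 were above and 3 below 0 at that level (5.97% and 3.85% of all genes).

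Of 21 other genes of the proteasome pathway, 5 were higher and 6 lower in STZ co-culture, and 4 were higher and 5 lower in control co-culture, where 20.8% and 22.3%, and 23.1% and 22.0%, of all genes were. Higher in both were Pomp, the chaperone that matures the beta ring, Sem1, a small lid subunit, and the proteasome-bound deubiquitinases Usp14 and Uchl5. Pomp averaged 358.5 ± 97.2 CPM in STZ co-culture, 482 ± 194.9 CPM in control co-culture and 109.8 ± 43.0 CPM in cells alone, a log2 fold change of 1.17 (adjusted p = 0.00429) and 1.86 (adjusted p = 0.000114). Txnl1, a proteasome-bound thioredoxin, had 2.14 ± 0.71 (adjusted p = 0.0265) in STZ and 0.78 ± 0.67 (adjusted p = 0.36) in control co-culture. Lower in both were Nfe2l2, the regulator of antioxidant genes, Ddi2, the protease that activates the proteasome regulator NFE2L1, Akirin2, which takes proteasomes into the nucleus, and Zfand5. Ddi2 averaged 17.8 ± 4.2 CPM in STZ co-culture, 21.9 ± 6.5 CPM in control co-culture and 53.6 ± 22.9 CPM in cells alone, and Nfe2l1 itself was called in neither (0.64 and -0.24). Ubqln2 was also lower in STZ co-culture and Ecpas in control co-culture, and 0 of the 21 genes were called between the co-cultures.

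Genes of the interferon response and of class I presentation share regulators with the immunoproteasome. They were higher in 6 of 8 cases in STZ co-culture (20.8% of all genes) and in 4 of 8 in control co-culture (23.1%). Nlrc5 averaged 306 ± 41.5 CPM in STZ co-culture, 356 ± 61.8 CPM in control co-culture and 97.4 ± 68.8 CPM in cells alone. This activator of class I genes was higher in both co-cultures (log2 fold change 1.73, adjusted p = 0.00896, and 1.89, adjusted p = 0.00289). Irf1, Tap1, Tap2 and Tapbp were called in STZ co-culture, B2m and Erap1 in control co-culture, and 0 of the 8 genes differed between the co-cultures by the test. Tap1 shares exonic bases with Psmb9 on the other strand (5.8% of those of Psmb9), so their reads there cannot be told apart. The same holds for Psmb8 and Gm20496 (14.7% of its exonic bases), Psmb7 and Nek6 (11.8%), Psmd13 and Sirt3 (10.1%) and Psmc3ip and Mlx (21.2%).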

How the data were processed

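For 13 libraries, cDNA was prepared from 10 ng of total RNA (integrity number above 8.0) with a low-input kit that keeps no strand information, and sequenced as paired reads of 150 bases, per the labels' protocols. The authors deposited a gene table of estimated counts, which is not normalized. Alignment was to GRCm38, per the labels' protocols, while aligner and counting program are not given in the sources used. Since 11% of its entries have decimals, the estimated counts were rounded before testing. The second table holds log2 values of 12236 genes that the authors deposited after an adjustment that no source used here describes, and it served as an alternative with limma. DESeq2 is named, with no version, per the submitters' processing notes.

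Counts were tested with edgeR 4.0.16 (R 4.3.3): filterByExpr, TMM, 1 term per group and 1 for batch day over all 13 libraries, robust quasi-likelihood F tests, and Benjamini-Hochberg adjustment over 15781 genes, called at an adjusted p under 0.05. All cells-alone libraries are of day 1, so the co-cultures alone inform the day term. Each SE was obtained by dividing the log2 fold change by the root of its F statistic. Alternatives used DESeq2 1.42.0, limma 3.58.1, other scalings and terms, and sets of libraries. Log2 ratios of counts (prior count 1) were tested by exact two-sided permutation over libraries. Depth sets the floor: 3 counts correspond to 0.0493 to 0.133 CPM in a library. Transcript lengths, GC content and overlaps are from GENCODE M21, and levels per length use each gene's principal transcript.

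Members, gene lists and tests were chosen with earlier results of these data known. Genes named in every comparison were Psmb5 to Psmb10, Psme1, Psme2, Psme3 and Psme4, then up to 4 called members with the largest change in each direction if expressed at 3 log2 CPM or more on average, and the member of each subcomplex with the smallest p. Other members are named because a count was small or because they stood apart, after their values were seen.

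Replicate numbers are shared between groups. After subtraction of group means, same-numbered libraries of control co-culture and cells alone correlated at 0.161 to 0.352 in 4 of 4 pairs. Different-numbered libraries of these groups correlated at -0.43 (control 2 with alone 4) to 0.433 (control 3 with alone 4). A pairing is therefore not established from the data, and the labels do not state one. Values by same-numbered pairs stand beside the unpaired ones for the ratios of subunits in control co-culture and cells alone. For single genes, the replicate number as a block is among the alternatives. The pair numbered 3 joins batch days 2 and 1. Same-numbered libraries correlated at 0.139, -0.202, 0.474 and 0.115 between STZ and control co-culture. Between STZ co-culture and cells alone they correlated at 0.038, -0.415, 0.331 and 0.289, so a pairing is not established there either. Some genes of the lists are counted but not reported by name here.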

Additional observations from a re-analysis of the deposited data

Results flagged for a closer look

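In 4 of 51 groups of values tested, 1 library lay far from the others of its group by Dixon's criterion, which chance alone meets in about 1 in 20 groups. Psmb4 in STZ co-culture was lowest in STZ 3 at 124.2 CPM, where the next library had 194.1 CPM. Psmd6 was also lowest in STZ 3, at 94.34 CPM beside 175.0 CPM in the next. Psmb5 in control co-culture was lowest in control 3 at 43.87 CPM, beside 96.72 CPM in the next. Psme3 in cells alone was highest in alone 2 at 135.8 CPM, beside 16.15 CPM in the next.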

How the results depend on the processing

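Between STZ and control co-culture, the fit of these 2 groups only called 2.0 members higher and 15.0 lower (10.1% and 8.06% of 14881 genes). Leaving out alone 1 and 2 called 3.0 and 13 (8.85% and 6.43% of 17189 genes). Leaving out alone 3, alone 4 and control 3 called 3.0 higher and 0 lower (4.96% and 0.462% of 16671 genes). Against cells alone, lower members numbered 2.0 in control co-culture in the authors' adjusted table (37.0% of all genes). Without alone 1 and 2 they numbered 2.0 in control (24.5%) and 4.0 in STZ co-culture (24.7%). Without alone 3, alone 4 and control 3, 3.0 members were lower in control co-culture (21.8%). In that set 38 were higher in control (26.8%) and 36 in STZ co-culture (24.5%). With the GC correction 2.0 were lower in STZ co-culture (28.4%). Leaving out 1 library gave 0.0 to 1.0 lower members in STZ co-culture over cells alone (15.4 to 24.4% of all genes) and 0.0 to 2.0 over control co-culture (0.0 to 1.43%). In these fits 19 to 32 members were higher than cells alone in STZ co-culture (16.3 to 28.8% of all genes) and 30 to 35 in control co-culture (19.6 to 24.0%). With the replicate number as a block, 17 were higher in STZ (12.3% of all genes) and 32 in control co-culture (20.9%). Between the co-cultures 0 members were called with it (0.0% of all genes). Of the genes recomputed with the block (Psmb5 to Psmb10, Psme1 to Psme4, Psma5, Psmb4 and Psmd6) it changed the call of Psmb4 only. The remaining counts of called members stayed within 1.5 times their value.

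Log2 fold changes of STZ over control co-culture that changed sign were not called in either direction. For Psmb10 they were -0.002 without the day term, -0.076 within day 1, -0.079 without alone 3, alone 4 and control 3, -0.456 with the GC correction, and -0.074 to 0.294 without 1 library. Psmb9 had -0.036 with the replicate block and -0.324 with the GC correction, and Psmb5 had -0.112 with the latter. Against cells alone, the GC correction gave -0.317 for Psme1 and -0.629 for Psmb6 in STZ co-culture. In the authors' adjusted table, Psmb8 (-1.106) and Psmb5 (-0.047) changed sign in control co-culture, and Psme4 had 0.934 in STZ and 1.131 in control co-culture. Without alone 3, alone 4 and control 3, Psme4 had 0.361 and 0.422. Psme3 in control co-culture had 1.144 without alone 1 and 2, 0.4 without alone 2, STZ 1 and STZ 5, and -1.242 to 1.033 without 1 library.

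Of the ratios, Psmb10 over Psmb7 minus cells alone was 0.489 in STZ and 0.064 in control co-culture within day 1, 0.448 and 0.073 without alone 1 and 2, 0.173 in STZ co-culture without STZ 2 and 4, and -0.201 to 0.14 in STZ and -0.63 to 0.064 in control co-culture without 1 library. STZ minus control co-culture, which cells alone do not enter, changed sign without control 3. It was then -0.149 for Psmb8 over Psmb5, -0.064 for Psmb9 over Psmb6 and -0.087 for Psmb10 over Psmb7. Leaving out alone 3 and alone 4 as well gave the same values. In the set without alone 2, STZ 1 and STZ 5 it was -0.169 and -0.029 for the first and the second ratio. Without 1 library the differences of these ratios ranged over -0.149 to 0.336, -0.064 to 0.445 and -0.087 to 0.608. Psme1 over Psme3 in STZ co-culture minus cells alone was 0.693 without alone 3, alone 4 and control 3, and -1.455 to 0.166 without 1 library. The cause of these changes was not tested. Leaving out sets of libraries by their values and the GC correction were added after the data were seen.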
